A study of Mus musculus with 3 samples.

Results

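Expression of 9 genes of transforming growth factor beta (TGF-beta) signalling was described in single myeloid cells of the mouse brain. The genes were taken by symbol from the 27998 genes of the count matrix: the ligand gene Tgfb1, the receptor genes Tgfbr1 and Tgfbr2, the signal transducers Smad2, Smad3 and Smad4, the inhibitory Smad7, and the co-repressors Ski and Skil. Each symbol matched 1 row, and all 9 were detected, with 145 UMIs (unique molecular identifiers, one per captured RNA molecule) for Smad3 at the low end and 5242 for Tgfb1 at the high end. The study profiled brain cells of 5-month-old female C57BL6J mice after inhibition of the receptor Csf1r, on which microglia depend for survival. Its 3 labelled samples were an untreated control from 1 animal, a sample pooled from 2 animals after 14 days on a diet with the Csf1r inhibitor PLX5622 at 1200 mg/kg, and a sample from 1 animal that had the same 14 days of inhibitor and then 2 days of control diet. All animals shared the strain, age and sex given, and no genetic change was named. Whole brain without cerebellum was digested at 37 °C, depleted of myelin, sorted for the surface protein Cd11b, and sequenced with a 10x 3′ kit. Cd11b is carried by microglia and by other myeloid and natural killer (NK) cells.

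TGF-beta is secreted as a latent complex and, once activated, binds TGFBR2, which recruits and phosphorylates TGFBR1. TGFBR1 then phosphorylates SMAD2 and SMAD3, which enter the nucleus with SMAD4 and bind DNA at short elements with the core CAGAC. SMAD7 is induced by the pathway and blocks the receptor, while SKI and SKIL (SnoN) repress SMAD complexes on DNA. In the brain, TGF-beta is known as a signal that microglia need for their adult gene expression, and Tgfb1 is made by microglia themselves.

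On the mouse build GRCm38, the version of mm10, the GENCODE annotation places the genes as follows, with the other three SMAD genes given further on. Tgfb1 (ENSMUSG00000002603) lies on the plus strand at chr7:25687002-25705077. Tgfbr1 (ENSMUSG00000007613) lies on the plus strand at chr4:47353222-47414931, and Tgfbr2 (ENSMUSG00000032440) on the minus strand at chr9:116084293-116175360. Smad3 (ENSMUSG00000032402) lies on the minus strand at chr9:63646767-63757994. Ski (ENSMUSG00000029050) lies on the minus strand at chr4:155154075-155222592, and Skil (ENSMUSG00000027660) on the plus strand at chr3:31095058-31122577.

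The 250 bases before the transcription start of the ligand and receptor genes are shown because these 3 genes carry the main contrast described here. Ligand RNA was spread over many cell types. RNA of the type I receptor was highest in microglia-like cells and in the border-associated-macrophage-like cells of library 1. The sequences are from RefSeq on GRCm38.p6, in 5′ to 3′ direction on the strand of the gene. Capitals mark the GC box GGGCGG and its reverse complement CCGCCC, and the SMAD core CAGAC and its reverse complement GTCTG.
Tgfb1, chr7:25686752-25687001, plus strand: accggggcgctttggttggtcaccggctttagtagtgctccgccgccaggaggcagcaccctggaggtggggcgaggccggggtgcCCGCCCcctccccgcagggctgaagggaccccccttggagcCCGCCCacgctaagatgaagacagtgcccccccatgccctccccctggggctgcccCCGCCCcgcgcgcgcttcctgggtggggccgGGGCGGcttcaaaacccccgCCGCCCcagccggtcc
Tgfbr1, chr4:47352972-47353221, plus strand: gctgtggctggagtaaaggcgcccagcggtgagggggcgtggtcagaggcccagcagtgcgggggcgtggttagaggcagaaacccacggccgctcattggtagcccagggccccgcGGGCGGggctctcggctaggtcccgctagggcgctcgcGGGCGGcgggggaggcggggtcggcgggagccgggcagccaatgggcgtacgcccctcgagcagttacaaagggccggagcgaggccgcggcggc
Tgfbr2, chr9:116175364-116175613, minus strand: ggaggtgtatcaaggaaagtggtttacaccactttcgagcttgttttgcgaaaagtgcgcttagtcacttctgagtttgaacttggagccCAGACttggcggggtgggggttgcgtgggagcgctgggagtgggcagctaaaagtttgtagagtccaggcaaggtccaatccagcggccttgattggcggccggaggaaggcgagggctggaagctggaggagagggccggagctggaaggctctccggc
The Tgfb1 window held 5 GC boxes and the Tgfbr1 window 2, both without the SMAD core, at a GC content of 75.2% and 74.8%. A second RefSeq window of Tgfbr1, chr4:47385966-47386215, is not shown because its start lies 32994 bases from the annotated gene start. It held no GC box and 1 SMAD core, 203 bases before that start, at a GC content of 52.8%. The Tgfbr2 window held no GC box and 1 SMAD core, whose first base lies 160 bases before the start, at a GC content of 58.4%. Of 32851 RefSeq promoter windows of this length, 32.7% held the GC box and 42.2% the SMAD core on either strand, so both motifs are common and a match describes the letters only. Windows were read for 5 of the 9 genes, and none was read for the rest. The other two, Smad3 and Ski, had 2 and 5 GC boxes and no SMAD core.

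The deposited matrix pooled 3 libraries, told apart by a suffix on the cell barcode. No source used here ties a suffix to a diet group, so libraries are numbered 1 to 3 and no statement on PLX5622 can be made from them. Libraries 1, 2 and 3 held 1263, 599 and 287 cells with median depths of 3662, 6188 and 8172 UMIs per cell, and shared 0 barcodes. Each library is a single sample, and the classes were clustered from the same cells that are compared, so no test was run between libraries or classes. Levels are UMIs of a gene per 1000000 UMIs summed over a class in a library (CPM), with an exact Poisson 95% interval that covers counting error only. Cells were grouped into classes from marker genes, after clustering without the 9 genes. A class is called microglia-like, for example, because its clusters were led by microglia markers. Microglia-like cells were 86.2% of library 1 (1087 cells), 10.98% of library 2 (65 cells) and 1.06% of library 3 (3 cells), so the label of microglia held for most cells of 1 library only. Libraries 2 and 3 were mostly monocyte-like, dendritic-cell-like, neutrophil-like and NK-like cells. The border-associated-macrophage-like class of library 1 (90 cells) went partly against its name: Mrc1 was 446 CPM there and 4.46 CPM in microglia-like cells, yet P2ry12, the defining microglial receptor, stood at 45.1% of its microglia-like level. The conventional-dendritic-cell-like class of libraries 1 and 2 held some endothelial cells: Cldn5, their junction gene, was 225 and 85.4 CPM there, and a finer clustering set 12 cells apart, whose part in that class's levels was not tested. One cluster of 39 cells, with proliferation genes in 6 of its top 10, stayed unnamed although 6 conventional-dendritic-cell markers, Cd209a and Itgax among them, passed in it.

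Tgfb1, the ligand gene, was broadly expressed. Microglia-like cells of libraries 1 and 2 reached 589 CPM (568 to 611) and 355 CPM (292 to 427). Monocyte-like cells of libraries 1, 2 and 3 reached 469 CPM (329 to 650), 416 CPM (350.0 to 492) and 329.9 CPM (301 to 361). The microglia-like and monocyte-like intervals overlapped within library 1 and within library 2. Conventional-dendritic-cell-like cells held 274, 265 and 268 CPM in libraries 1, 2 and 3, with overlapping intervals. Non-classical-monocyte-like cells had 302 and 261 CPM in libraries 2 and 3, and the border-associated-macrophage-like cells of library 1 had 444 CPM (401 to 490). The low end was formed by neutrophil-like cells of library 3, at 88.2 CPM, and mature-dendritic-cell-like cells of library 2, at 59.5 CPM (38.5 to 87.8). NK-like cells lay between these ends, at 252, 115 and 172 CPM.

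**Figure D1:**
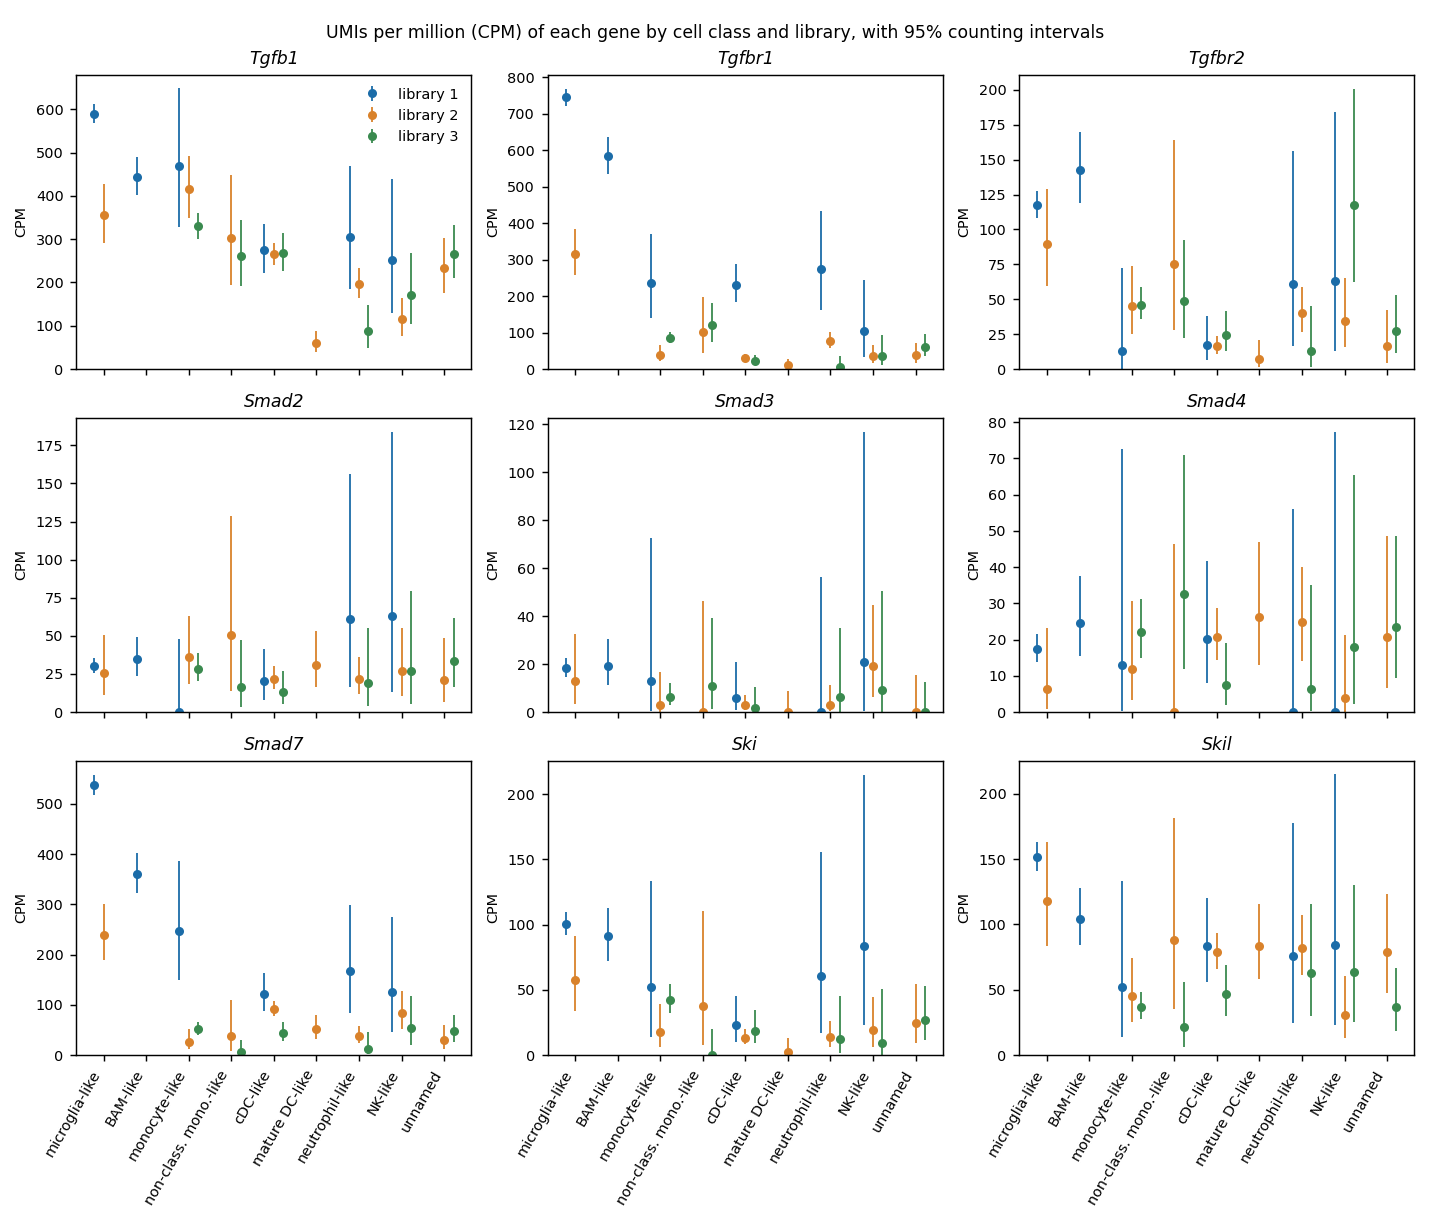
Level of each of the 9 genes in each cell class, in CPM (vertical axis, linear scale from 0), coloured by library, with exact Poisson 95% intervals. Tgfb1 is seen in all classes, from 59.5 to 589 CPM, while Tgfbr1 and Smad7 stand highest in the microglia-like cells of library 1, at 744 and 538 CPM.

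Tgfbr1, the type I receptor kinase, was highest in microglia-like cells of library 1, at 744 CPM (720.4 to 769). Border-associated-macrophage-like cells of library 1 followed at 584 CPM (535 to 637) and microglia-like cells of library 2 at 316 CPM (257 to 385). The intervals of these 3 did not overlap. The next in order were neutrophil-like cells of library 1 at 274 CPM (162 to 433), monocyte-like cells of library 1 at 235 CPM (139 to 371) and conventional-dendritic-cell-like cells of library 1 at 231 CPM. The same classes had much less in the other libraries: monocyte-like cells 38.9 CPM (20.7 to 66.6) and 85.9 CPM (71.2 to 103) in libraries 2 and 3, conventional-dendritic-cell-like cells 31.5 and 22.5 CPM, and neutrophil-like cells 77.3 and 6.30 CPM, the last a single UMI. Non-classical-monocyte-like cells of those libraries had 101 and 119 CPM. Mature-dendritic-cell-like cells were at 11.9 CPM, and NK-like cells at 105, 34.4 and 36.2 CPM in libraries 1, 2 and 3. Libraries 2 and 3 held only 7 and 3 border-associated-macrophage-like cells, with 1 Tgfbr1 UMI in each library. That is 25.5 CPM (0.646 to 142) and 35.8 CPM (0.905 to 199), below the 584 CPM of library 1. All other values of this class are of library 1.

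The share of cells with at least 1 UMI was compared after thinning each cell to 2000 UMIs, which left out 68 microglia-like cells of library 1 and 6 of library 2 as too shallow. Tgfbr1 was then detected in 75.2% of microglia-like cells of library 1 (72.4 to 77.8) and 47.5% of those of library 2 (34.3 to 60.9), against 89.0% and 72.3% before thinning. Among monocyte-like cells it was detected in 0 of 10 in library 1, which allows a share of up to 30%, in 5.66% in library 2 and in 10.3% in library 3. NK-like cells of library 2 gave 5.97%. Tgfb1, by the same measure, was detected in 68.4% and 44.1% of microglia-like cells and in 69.8% and 48.5% of monocyte-like cells of libraries 2 and 3. Within library 2, cells with ligand RNA were therefore no rarer among monocyte-like than among microglia-like cells, and cells with Tgfbr1 RNA were.

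Tgfbr2, the type II receptor that binds the ligand, had another order. Border-associated-macrophage-like cells had 143 CPM (119 to 170), microglia-like cells of libraries 1 and 2 had 118 CPM (108 to 128) and 89.5 CPM (59.5 to 129), and NK-like cells of library 3 had 118 CPM (62.6 to 201). The intervals of all 4 overlapped. Monocyte-like cells held 44.9 and 46.1 CPM in libraries 2 and 3, and a single UMI, or 13.04 CPM, in library 1. Non-classical-monocyte-like cells had 75.4 and 48.8 CPM in libraries 2 and 3. Conventional-dendritic-cell-like cells were at 17.3, 16.4 and 24.3 CPM in libraries 1, 2 and 3, and mature-dendritic-cell-like cells were lowest at 7.14 CPM. Among NK-like cells the level was 63.0, 34.4 and 118 CPM, with overlapping intervals.

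The transducers Smad2, Smad3 and Smad4 were sparse, and their order across classes is poorly resolved. Smad2 (ENSMUSG00000024563, plus strand, chr18:76241580-76310963), a receptor-activated SMAD, had 30.02 CPM in microglia-like cells of library 1, 25.6 CPM in those of library 2 and 34.8 CPM in border-associated-macrophage-like cells. Monocyte-like cells had 36.0 and 28.4 CPM in libraries 2 and 3. Library 1 gave no Smad2 UMI in its monocyte-like cells, a count of 0 under which a level of up to 39.1 CPM is possible. No class stood apart from the others for Smad2. Smad3, the other receptor-activated SMAD, had 18.3 CPM in microglia-like cells of library 1, 12.8 CPM in those of library 2 and 19.1 CPM in border-associated-macrophage-like cells. NK-like cells of libraries 1 and 2 were at the top of its order with 20.99 CPM (0.531 to 117, 1 UMI) and 19.1 CPM (6.21 to 44.6), overlapping the 3 before. Monocyte-like cells of libraries 2 and 3 had 3.00 and 6.39 CPM, and conventional-dendritic-cell-like cells 5.78, 3.03 and 1.87 CPM. Smad4 (ENSMUSG00000024515, minus strand, chr18:73639009-73703780), the partner that both share, had 17.4 CPM in microglia-like cells of library 1 and 6.39 CPM, from 2 UMIs, in those of library 2. Its level was 21.99 CPM in monocyte-like cells of library 3 and 20.6 CPM in conventional-dendritic-cell-like cells of library 2. Smad4 overlaps a processed pseudogene on the opposite strand in the annotation, which is not among the genes counted.

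Smad7 (ENSMUSG00000025880, plus strand, chr18:75367529-75395935), the feedback inhibitor, followed Tgfbr1 more than the other SMAD genes. Microglia-like cells of libraries 1 and 2 had 538 CPM (517 to 558) and 239.7 CPM (189 to 300.4), and border-associated-macrophage-like cells 361 CPM (322 to 402). Monocyte-like cells of libraries 1, 2 and 3 had 248, 27.0 and 51.8 CPM. Conventional-dendritic-cell-like cells held 121, 92.7 and 44.9 CPM in libraries 1, 2 and 3, and NK-like cells 126, 84.1 and 54.3 CPM. In library 2 both classes thus lay above monocyte-like cells for Smad7, which was not so for Tgfbr1. Non-classical-monocyte-like cells of library 3 were lowest at 5.43 CPM, from 1 UMI. After thinning, Smad7 was detected in 51.9% and 33.9% of microglia-like cells of libraries 1 and 2, and in 0 of 10, 5.66% and 15.5% of monocyte-like cells of libraries 1, 2 and 3.

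Ski and Skil, the related co-repressors, differed in how widely they were found. Ski had 101 CPM in microglia-like cells of library 1, 57.5 CPM in those of library 2 and 91.0 CPM in border-associated-macrophage-like cells. Monocyte-like cells had 52.1, 18.0 and 42.6 CPM, conventional-dendritic-cell-like cells 23.1, 13.3 and 18.7 CPM, and mature-dendritic-cell-like cells 2.38 CPM from 1 UMI. Skil stood at 152 CPM (141 to 163) and 118 CPM (83.3 to 163) in microglia-like cells of libraries 1 and 2. Outside them it ranged from 21.7 CPM in non-classical-monocyte-like cells of library 3 to 105 CPM in border-associated-macrophage-like cells. Mature-dendritic-cell-like cells of library 2 and neutrophil-like cells of library 3, the bottom of the order for Tgfbr1, had 83.3 and 63.0 CPM of Skil.

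Microglia-like cells were then compared with monocyte-like cells of the same library, calling a gene higher or lower at 2-fold or more among genes with at least 50 UMIs over both sums. In library 1, 4 of the 9 genes were called higher in microglia-like cells and 0 lower, where 14.8% of the 7177 genes tested were called higher and 11.7% lower. All 9 genes reached 50 UMIs through the microglia-like cells, with 0 to 36 UMIs in the monocyte-like cells, so this count supports nothing by itself. Tgfbr1 was 3.17-fold higher, a log2 ratio of 1.67 (1.00 to 2.42), Smad7 2.17-fold, Skil 2.91-fold, and Tgfbr2 9.02-fold (1.61 to 357) on a single monocyte UMI. The log2 ratio of Tgfb1 was 0.33 (-0.14 to 0.85). In library 2 only 4 of the 9 genes had enough UMIs, and Tgfbr1 and Smad7 had them through the microglia-like cells, with 99 and 75 UMIs there against 13 and 9. The count over these 4 therefore supports nothing by itself: 3 of them were called higher and 0 lower, where 17.0% of the 1616 genes tested were higher and 20.5% lower. Tgfbr1 was 8.12-fold higher (4.54 to 15.8), Smad7 8.89-fold (4.44 to 20.2) and Skil 2.63-fold, while Tgfb1 stood at 0.852-fold. The median log2 ratio in library 1 was 0.95 over the 9 genes against -0.20 over all genes, under the same limit as its count. The classes differed in summed microglia-marker level by construction, at 34880 CPM against 7104 CPM in library 1 and 19010 CPM against 1468 CPM in library 2.

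The monocyte-like values of library 1 rested on 1 cell. Among its 10 monocyte-like cells, 1 cell with 26979 UMIs drew 1.89% of them from the 10 microglia markers, and the other 9 cells, with 4007 to 7862 UMIs, drew 0.041% to 0.165%. That cell held 17 of the 18 Tgfbr1 UMIs of the class, 18 of 19 for Smad7, 4 of 4 for both Ski and Skil, and 15 of 36 for Tgfb1. The ligand RNA was thus spread over the other cells, and the receptor and inhibitor RNA was not. Cells with at least 0.3% microglia-marker UMIs were therefore counted in each class. They were 3 of 53 and 28 of 98 monocyte-like cells in libraries 2 and 3, 11 of 39 and 6 of 201 conventional-dendritic-cell-like cells in libraries 1 and 2, 8 of 14 and 18 of 90 neutrophil-like cells there, and 2 of 13 and 0 of 79 NK-like cells. Almost all microglia-like cells passed this share, 1085 of 1087 and 65 of 65, and so did 78 of the 90 border-associated-macrophage-like cells of library 1.

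Without those cells, Tgfbr1 in monocyte-like cells stood at 2.70% of its microglia-like level in library 1 (0.0684 to 15.1, 1 UMI in 9 cells) and at 5.67% in library 2 (1.80 to 13.7, 5 UMIs in 50 cells). The values over all monocyte-like cells were 31.5% and 12.3%. As folds, microglia-like cells were 37.0-fold higher (6.64 to 1463) in library 1 and 17.7-fold higher (7.31 to 55.6) in library 2. Smad7 stood at 3.74% (0.0947 to 20.9, 1 UMI) and 2.99% (0.356 to 11.2, 2 UMIs) of the microglia-like level, and Tgfb1 at 71.6% and 121%. P2ry12, whose share gives a measure of microglial RNA in these cells, was at 0.819% and 1.12%, and had been at 15.4% and 4.91% over all monocyte-like cells. In the other classes of library 2, Tgfbr1 without such cells was at 7.71% in conventional-dendritic-cell-like, 9.20% in neutrophil-like, 10.9% in NK-like and 3.76% in mature-dendritic-cell-like cells. P2ry12 was at 0.488%, 0.298% and 0.186% in the conventional-dendritic-cell-like, NK-like and mature-dendritic-cell-like cells. Smad7 stood there at 35.2% of the microglia-like level in conventional-dendritic-cell-like, 35.1% (20.8 to 57.1) in NK-like, 21.8% in mature-dendritic-cell-like and 12.1% in neutrophil-like cells. Skil stood at 67.2%, 25.9%, 70.4% and 67.3% in these classes, at 36.4% in monocyte-like cells, and at 12.3% in non-classical-monocyte-like cells, on 1 UMI, where it had been 74.4% before 2 cells were left out. No NK-like or mature-dendritic-cell-like cell of library 2 reached the share, so their values are those of all cells. Whether the cells left out are doublets was not tested.

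**Figure D2:**
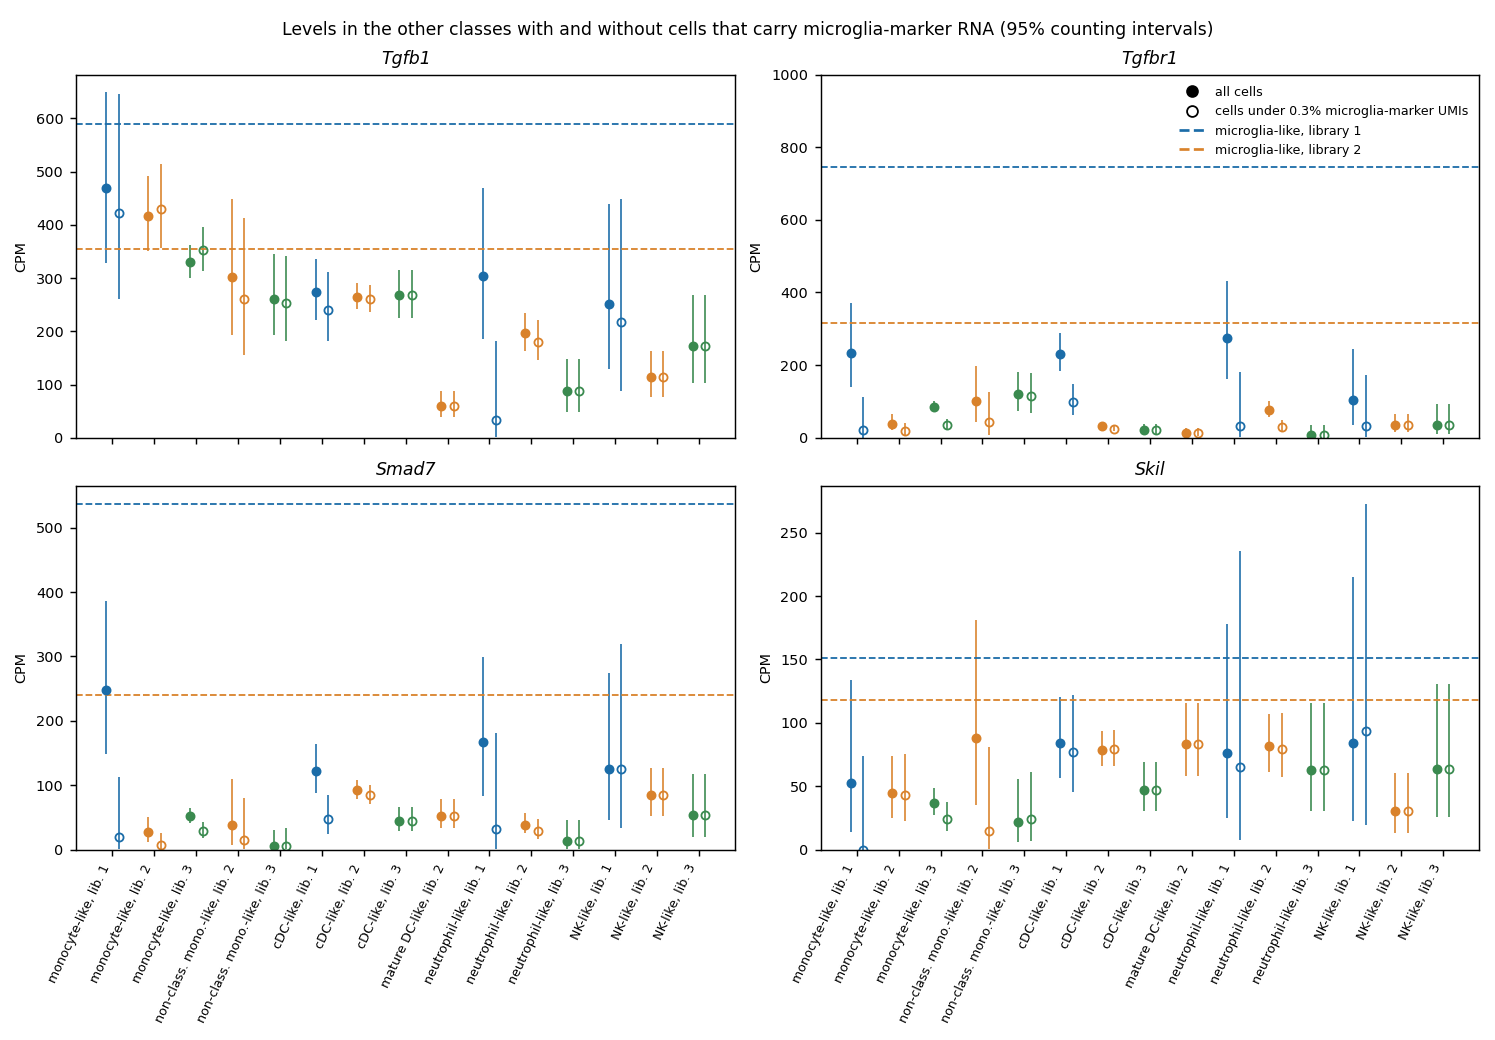
Levels of Tgfb1, Tgfbr1, Smad7 and Skil (CPM, linear axis from 0, exact Poisson 95% intervals) in the classes other than microglia-like and border-associated-macrophage-like; filled points are all cells, open points are cells with under 0.3% microglia-marker UMIs, and dashed lines give the microglia-like level of libraries 1 and 2. Tgfbr1 in monocyte-like cells of library 1 moves from 235 to 20.1 CPM when 1 cell is left out, while Tgfb1 moves from 469 to 422 CPM.

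Library 3 had only 3 microglia-like cells but many monocyte-like cells with microglia-marker RNA. Its 28 monocyte-like cells at or over the 0.3% share had 157 CPM of Tgfbr1 (127 to 193), against 36.1 CPM (24.4 to 51.6) in the 70 cells under it. Smad7 was 84.7 CPM (62.6 to 112) against 28.9 CPM (18.5 to 43.0), Tgfbr2 69.1 against 30.1 CPM, and Ski 65.7 against 26.5 CPM. The intervals of these 4 genes did not overlap between the sets. Tgfb1 was 297 CPM against 353 CPM, and Smad4 13.8 against 27.7 CPM, with overlapping intervals. The cells at or over the share were deeper, with a median of 18661 against 9714 UMIs, and the part of depth was not tested.

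Between border-associated-macrophage-like and microglia-like cells of library 1, 0 of the 9 genes passed 2-fold, where 7.04% of the 7638 genes tested passed it, 3.16% as higher and 3.89% as lower in microglia-like cells. Smad7 was 1.49-fold higher in microglia-like cells, Skil 1.45-fold, Tgfb1 1.33-fold and Tgfbr1 1.27-fold, and Tgfbr2 stood at 0.824-fold. The median log2 ratio was 0.14 over the 9 genes and 0.03 over all genes, and a count of 0 among 9 is near the share of all genes, so it is no result about these genes in particular. Of the 90 cells, 69 were microglia by their own marker UMIs. The part of microglial RNA in the border-associated-macrophage-like levels was not tested.

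Microglia-like cells of library 2 held less Tgfbr1 and Smad7 than those of library 1. Called at 2-fold, 3 of the 9 genes were lower and 0 higher, where 18.3% of the 7262 genes tested were lower and 2.48% higher. Tgfbr1 had a log2 ratio of -1.23 (-1.54 to -0.95) and Smad7 of -1.17 (-1.52 to -0.83), while the -1.45 of Smad4 rested on 2 UMIs, with an interval of -4.52 to 0.45. Ski stood at -0.81, Tgfb1 at -0.73, Tgfbr2 at -0.39 and Skil at -0.36, none past 2-fold. All genes tested had a median of -0.35, and scaled by the median ratio of genes Tgfbr1 stood at -0.89 and Smad7 at -0.82, both short of 2-fold. The microglia markers moved the same way: P2ry12 was 1281 CPM in library 2 against 4909 CPM in library 1. With a single animal or pool behind each library, animal, library and diet cannot be told apart.

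At a finer clustering, 17 of the 65 microglia-like cells of library 2 fell into a cluster of 102 cells led by Ccl12, Ube2c, Birc5, Spp1, Lpl and Top2a, a mix of cell cycle genes and genes of activated phagocytes. It also took 40 monocyte-like cells of library 3, and all 39 cells of the unnamed cluster. The cluster passed 6 of the 10 microglia markers, and none was among its leading genes. Its level of Tgfbr1 was 111 CPM in library 2 and 124 CPM in library 3, of Smad7 85.6 and 63.6 CPM, and of Tgfb1 277 and 289 CPM. The remaining 48 microglia-like cells of library 2, in clusters led by microglia markers, had 351 CPM of Tgfbr1 (271 to 448), 259 CPM of Smad7 (191 to 344) and 362 CPM of Tgfb1. In library 2 this cluster mixed classes: 17 of its 38 cells were microglia-like, 19 were unnamed and 2 were monocyte-like. The 19 unnamed cells had 37.5 CPM of Tgfbr1 and 29.2 CPM of Smad7. Within library 2, Tgfbr1 and Smad7 thus stood lower over the mixed cycling cluster, with intervals apart. The level of its 17 microglia-like cells alone was not measured, and the part of the mix was not tested. Both groups of cells stayed below library 1, at 747 and 538 CPM in the clusters led by microglia markers.

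Cells could also be called microglia one by one, by having at least 0.3% of their UMIs from microglia markers and more than from any other list. This gave 1171, 71 and 25 cells in libraries 1, 2 and 3. Tgfbr1 was 723, 303 and 148 CPM in them, Smad7 514, 229.6 and 56.4 CPM, Skil 144, 123 and 56.4 CPM, and Tgfb1 568, 365 and 292 CPM. P2ry12 was 4496, 1145 and 206 CPM in the same cells. All 5 genes were thus lowest in library 3. Of its 25 cells, 20 came from the monocyte-like class, 2 from the unnamed cluster and 3 from the microglia-like class, while 1085 of 1171 and 65 of 71 were microglia-like in libraries 1 and 2. The 25 cells also had a median depth of 20046 UMIs against 3560 and 4104 UMIs in libraries 1 and 2. The parts of class and depth were not tested.

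**Figure D3:**
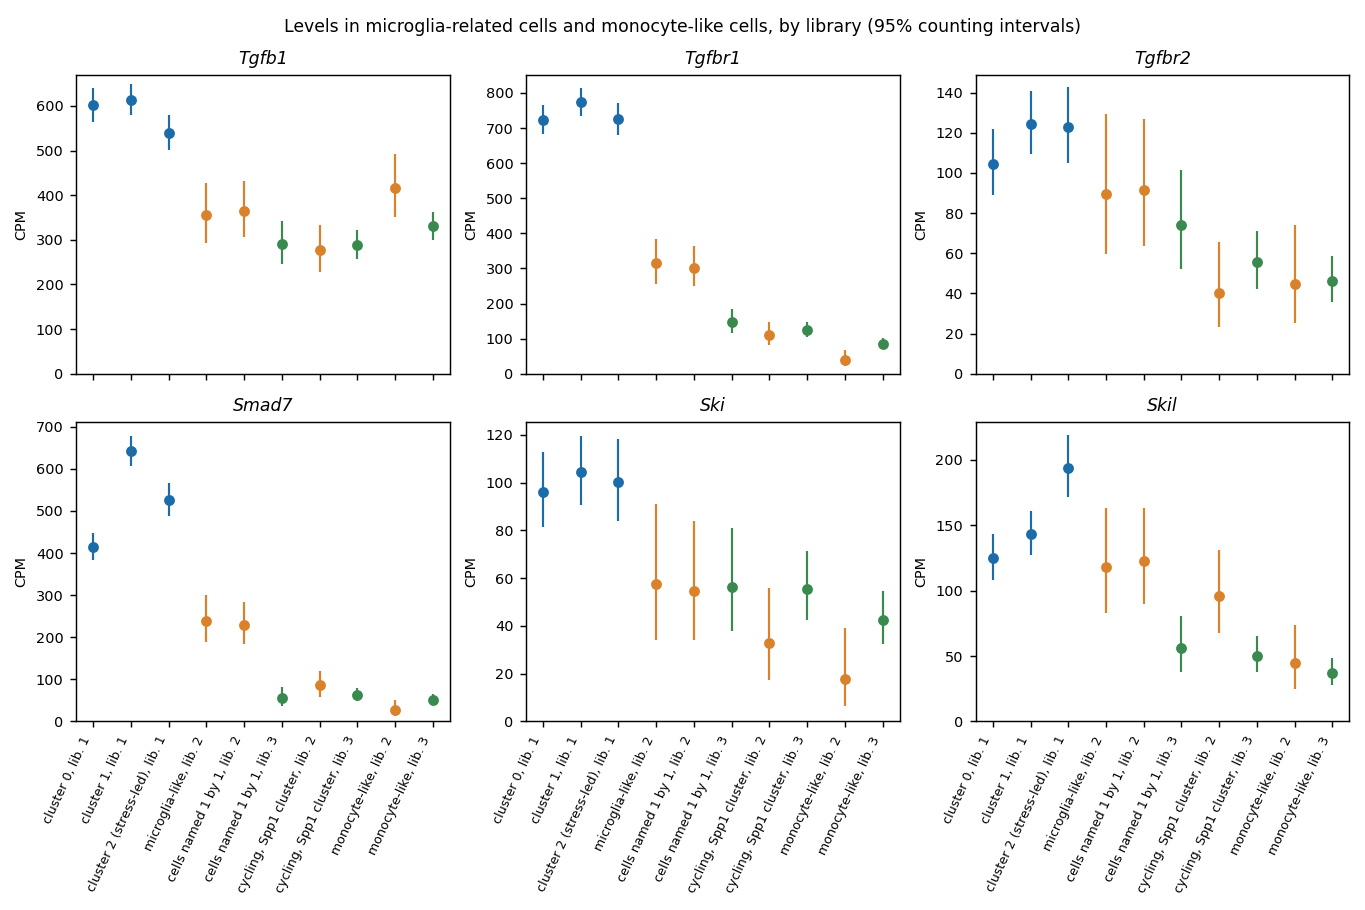
Levels (CPM, linear axis from 0, exact Poisson 95% intervals) of 6 genes in views of microglia-related cells: the 3 microglia-like clusters of library 1, microglia-like cells of library 2, cells named one by one in libraries 2 and 3, the cycling cluster of mixed classes in libraries 2 and 3, and monocyte-like cells in libraries 2 and 3. Tgfbr1 stands between 724 and 773 CPM in the clusters of library 1, at 316 CPM in microglia-like cells of library 2, and at 111 and 124 CPM in the cycling cluster.

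Within the microglia-like cells of library 1, Smad7 and Skil differed between clusters beyond their counting intervals, while those of Tgfbr1 overlapped. The class was made of 3 clusters of 497, 398 and 192 cells, numbered 0, 1 and 2. Tgfbr1 was 724, 773 and 726 CPM in them and Tgfb1 601, 614 and 540.1 CPM. Smad7 was 416 CPM (384 to 449) in cluster 0, 641 CPM (607 to 678) in cluster 1 and 527 CPM (489 to 567) in cluster 2, with intervals that did not overlap. Skil was 125 CPM (108 to 144), 144 CPM (127 to 161) and 194 CPM (172 to 219), so that cluster 2 stood apart from the other two. Cluster 2 was led by Cd74, Il1b, Dusp2, Nfkbiz, Tnf, Cd83, Nr4a1, Ifrd1, Gadd45b and Apoe. Of these, 4 are on a list of immediate early and stress genes, so the cluster is called stress-led. Cluster 1, where Smad7 was highest, was led by Hes1, Hspa1a, Impact, Hk2, Tigd2, Gm13889, Ubac2, Hsp90aa1, Smad7 and Rgs1, of which 1 is on that list. Junb, another gene of early stress responses, was 1087, 3092 and 5786 CPM in clusters 0, 1 and 2, an order shared by Skil and not by Smad7. The median depth was 2836, 4076 and 6036 UMIs. Cluster 2 against the other two had 0 of the 9 genes past 2-fold, where 2.57% of the 7124 genes tested passed it, 1.60% as higher and 0.969% as lower. The highest of the 9 was Skil at 194 against 135 CPM, a log2 ratio of 0.52, which turned to -0.11 when only cells with at least 1000 genes were kept. The part of the enzymatic digestion at 37 °C was not tested.

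Cell-to-cell spread was read in the 1019 thinned microglia-like cells of library 1. For Smad7 the variance of UMIs per cell was 1.92 times the mean, against a median of 1.10 among 187 genes of like mean, 89.8% of which lay below it. Skil was at 1.14 against 1.03, with 92.2% of 879 genes below. Tgfb1, at 1.04 against 1.12, and Tgfbr1, at 1.15 against 1.16, had spreads like other genes of their level. Ligand and receptor RNA were found together in 51.2% of these cells, where the 2 shares multiplied give 51.4%. Tgfbr1 and Smad7 were found together in 40.3%, against 39.0%. At this depth, the shares found together were thus close to the products for both pairs.

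Other genes of the pathway were taken from 7 lists with 103 genes: ligands, latency and activation, receptors, other SMADs and partners, regulators, general target genes, and microglial genes described as TGF-beta dependent. Microglia-like against monocyte-like cells of library 1 had 26 of 64 tested genes higher and 5 lower, where 14.8% of all genes tested were higher and 11.7% lower. The last list gave 17 of the 26, of its 18, and shares 10 genes with the markers that named the class, so its direction is not independent of the naming. Without those markers the count was 16 of 54 higher and 5 lower. Sall1, Slc2a5, Siglech and P2ry12, all microglial genes, were among those with the highest ratios. Tgfbi, a TGF-beta-induced matrix gene, went the other way at 33.9 against 456 CPM, and so did the cell cycle inhibitor Cdkn1a at 63.1 against 365 CPM. The other 3 lower genes, Smad5, Smurf2 and Usp15, rested on 3, 2 and 4 monocyte-like UMIs, with log2 intervals that included 0.

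In library 2, 16 of 27 tested pathway genes were higher and 2 lower, and without the markers 8 of 19 were higher and 2 lower, where 17.0% of all genes tested were higher and 20.5% lower. Itgb5, which encodes an integrin subunit, was 879 against 36.0 CPM, beside P2ry13, Gpr34, Tmem119 and P2ry12. Thbs1, an activator of latent TGF-beta, was 9.59 CPM (3 UMIs) against 239.6 CPM, a log2 ratio of -4.64 (-6.95 to -3.04), and Tgfbi 25.6 against 386 CPM. Tgfbi was thus lower in microglia-like cells of both libraries. Against border-associated-macrophage-like cells, 6 of 67 pathway genes were higher in microglia-like cells (Slc2a5, P2ry12 and P2ry13 among them) and 4 lower. Without the markers 2 of 57 were higher and 4 lower, near the 3.16% and 3.89% of all genes tested. The 4 lower genes were Tgfbi at 33.9 against 257 CPM, the ubiquitin ligase Wwp1 at 21.5 against 87.6 CPM, the decoy receptor Bambi at 9.94 against 30.3 CPM, and Gas6.

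Between microglia-like cells of library 2 and library 1, 1 of 65 pathway genes was higher and 22 were lower, and without the markers 1 of 55 was higher and 16 were lower. Of all genes tested, 2.48% were higher and 18.3% lower, so these too were mostly lower. Pmepa1, a target that limits SMAD signalling, was 38.4 against 249 CPM, Gdf15 9.59 CPM (3 UMIs) against 77.5 CPM (log2 -3.01, -5.30 to -1.46), and Tmem119 610.3 against 3073 CPM, with Slc2a5 and Bhlhe41 also among the lowest ratios. Cdkn1a was the gene that was higher, at 204.5 against 63.1 CPM. In the stress-led cluster of library 1, 5 of 63 were higher and 0 lower, where 1.60% of all genes tested were higher and 0.969% lower. The 5 were Cdkn1a at 155 against 28.0 CPM, Gdf15 at 162 against 45.4 CPM, the co-repressor Tgif1 at 135 against 42.8 CPM, Ppp1r15a and Id2. Cdkn1a was higher in library 2 and in the stress-led cluster, while Gdf15 was lower in the former and higher in the latter.

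The genes whose levels ran most like each member were ranked over the 20 class-by-library units with at least 10 cells, by Pearson's r of log2(CPM + 10) among 9686 genes. The units share libraries and depths, so r is a description. Tgfbr1 was most like Serinc3 (0.949), Nav2 and Inpp5d, and Tgfb1 most like Capza2 (0.905), Tm2d2 and Fcgr1. Smad7 was most like Selplg (0.907), Lefty1 and Itm2c, Ski like Tmem63a (0.947), Dst and Gna15, and Skil like Ilvbl (0.798), Mob3c and Junb (0.764). Tgfbr2 was most like Fnta (0.851), Atraid and BC003965. For the sparse SMAD genes, the leading genes were Ankrd13a, Ankle2 and Pdpk1 for Smad2, Sipa1, Klhl25 and Ttc14 for Smad3, and Kdm3b, Sav1 and Dpy19l1 for Smad4. Among the members themselves, r was 0.788 for Smad7 and Ski, 0.763 for Tgfb1 and Tgfbr1, 0.754 for Tgfbr1 and Smad7, and 0.608 for the 2 receptors. Smad4 had no positive r above 0.002 with any other member.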

How the data were processed

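Counts of UMIs per gene and cell were deposited by the authors as 1 pooled matrix of 2149 barcodes. It was made with Cell Ranger 2.0.1 on mm10, per the submitters' processing notes. Cells with at least 500 genes and at most 10% mitochondrial counts were kept (5 were removed), and 7 called doublets were left out. That is a low yield beside the 5% assumed, so doublets may remain. The 2137 cells left were clustered in scanpy 1.11.5 on 2000 variable genes, with the 9 genes and the pathway lists left out unless they were markers, using 30 principal components and Leiden resolution 0.5. A cluster was named from a marker list when at least 3 of its markers were found in 30% of cells at 2 times the median cluster. Of several such lists it took the one with most markers among its 10 leading genes. It stayed unnamed where a list with under 3 such markers had more among those genes, or where its median depth was low and none of its markers led it. Counts were summed per class and library (at least 10 cells), scaled to CPM, and compared with exact binomial intervals of the ratio, and a sum of 0 was set to 3 counts. Intervals cover counting error only. No test was run and no p-value is given, since each library is 1 sample.

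The 9 genes, the marker lists and the pathway lists were chosen with earlier results of these data known. Of the pathway genes, the 5 with the highest and the 5 with the lowest ratio past 2-fold in a comparison are named, except that some genes are not reported here, and for each member the 3 genes with the highest r. Sums and calls were tested on simulated data. Other settings were tried in 11 ways (given with the closing values), and 1 more (monocyte-like cells with at least 0.3% microglia-marker UMIs left out) was chosen after seeing the data. The extraction protocol speaks of 4 samples, and the labels used here give 3.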

Additional observations from a re-analysis of the deposited data

Results flagged for a closer look

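The unnamed cluster of 39 cells entered none of the comparisons, yet held UMIs of 8 of the 9 genes above the limit of 3 counts that a count of 0 allows. It held 135 UMIs of Tgfb1, 27 of Tgfbr1, 12 of Tgfbr2, 15 of Smad2, 12 of Smad4, 21 of Smad7, 14 of Ski and 30 of Skil, and 0 of Smad3. As levels, its cells of libraries 2 and 3 had 233 and 266 CPM of Tgfb1, which lies among the conventional-dendritic-cell-like and non-classical-monocyte-like values. Tgfbr1 was 37.5 and 60.7 CPM, Tgfbr2 16.7 and 27.0 CPM, Smad7 29.2 and 47.2 CPM, and Skil 79.1 and 37.1 CPM. The median depth of these cells was 13160 UMIs, and 6 of the 10 genes that led the cluster were proliferation genes. It also passed 6 conventional-dendritic-cell markers, none among its leading genes.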

How the results depend on the processing

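Under 11 alternatives and the 1 added after seeing the data, 1212 of 1404 levels, 358 of 423 log2 ratios and 42 of 47 counts of genes past 2-fold stayed within their bounds, and 192 levels, 64 ratios and 5 counts moved. For library 2 against library 1, the count of 3 became 5 at Leiden resolution 1.0 and 1 when scaled by the median ratio of genes. For microglia-like against monocyte-like cells, the count in library 1 went from 4 to 7 with doublets kept (17 monocyte-like cells), and in library 2 from 3 to 0 with cells thinned to 2000 UMIs, where 1 member had enough UMIs. Against border-associated-macrophage-like cells the count went from 0 to 1 with thinned cells. Among genes with at least 50 UMIs, the 1 ratio past 2-fold that changed sign was that of Smad4 in library 2 against library 1. It was -1.45 and became 0.45 with thinned cells. Smad3 against monocyte-like cells of library 2, with under 50 UMIs, also changed sign (2.09, range -0.15 to 2.57). Leaving out monocyte-like cells with microglia-marker RNA gave counts of 4 in library 1 and 2 in library 2. Tgfbr1 ranged from 1.67 to 5.21 (log2) over monocyte-like cells of library 1, 2.11 to 5.72 in library 2, and -1.99 to -0.89 for library 2 against library 1, without a change of sign. Smad7 ranged from 1.12 to 4.74, 1.25 to 5.34 and -1.93 to -0.82. Ratios short of 2-fold changed sign more often, such as Skil in the stress-led cluster (0.52, range -0.11 to 0.81), Ski against monocyte-like cells of library 1 (0.95, range -0.58 to 3.10) and Smad3 in library 2 against library 1 (-0.51, range -1.42 to 0.57). The cause of these moves was not tested, beyond the fewer cells or genes that an alternative leaves. Resolution 1.0, the filter of 1000 genes, the filter of 5% mitochondrial counts and clustering each library on its own left under 10 monocyte-like cells in library 1 and gave no value there. The 5% filter gave no monocyte-like cluster in library 2. Clustering each library on its own gave no microglia-like cluster in library 1, so the comparisons that need one were not run. Naming cells one by one gave no stress-led cluster and under 10 border-associated-macrophage-like cells. No paired analysis was made, and the results come from no test: each group has 1 sample, and no library is tied to a group. Classes of the same library were set side by side without one. Depth limits Smad2, Smad3 and Smad4, whose levels rest on 367, 145 and 243 UMIs in all.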
